A study of Mus musculus with 55 samples.

Results

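Nr1i3 encodes CAR, the constitutive androstane receptor, and Nr1i2 encodes PXR, the pregnane X receptor. The promoter CpGs of both genes were followed in mouse liver from shortly before birth to adulthood. All CpGs that locus-specific bisulfite sequencing (LSBS, the sequencing of chosen regions amplified after bisulfite treatment) read upstream of either gene were taken, 4 for Nr1i3 and 5 for Nr1i2. They are 2 of 17 loci, and their 9 CpGs stand beside 157 CpGs in the other 15. To these were added the CpGs that reduced representation bisulfite sequencing (RRBS, which reads CpGs near restriction sites across the genome) measured from 5 kb upstream of a start site to the end of the gene, 12 of 271325 CpGs.

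All livers came from mice labelled C57BL/6, the substrain C57BL/6J by the study's methods, with no treatment or genetic change in the labels. The methods give the mice of the first RRBS experiments a purified chow with fat from coconut oil. LSBS was run on 31 livers, 5 at E18.5, shortly before birth, 5 at postnatal day 1 (P1), 4 at P5, 4 at P10, 3 at P15, 5 at P20 and 5 at 6 months. Of these, 16 were female and 15 male. RRBS was run on 5 livers at E18.5, 9 at P1 and 10 at 9 weeks. Some numbers in the E18.5 titles occur in both assays, so some livers may have been read by both, which the labels do not state. The methods name the 9-week mice of the first RRBS experiment as male, and the labels give no sex for any RRBS library, so a part of sex in the RRBS comparisons with 9 weeks cannot be told apart from age. The series also names some of the 9-week RRBS libraries as taken from another study, without labels that set them apart. A part of that source in these comparisons cannot be told apart from age either. Each liver was taken as 1 replicate, and p-values measure the spread between these samples. The tests between loci and between CpGs of a locus are the exception, as explained with them. No label says that livers were pooled or shared a mother. The LSBS titles do carry numbers in parts, whose first part recurs within several ages, and its meaning is not given. A shared litter was therefore not accounted for. Depth is unknown for single values, as read counts were not used.

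CAR and PXR are nuclear receptors of the liver that sense foreign and endogenous chemicals. Each binds DNA as a partner of the retinoid X receptor, and both raise transcription of cytochrome P450 enzymes, conjugating enzymes and transporters that clear drugs, bile acids and steroids. DNA methylation here is the share of copies of a CpG that carry a methyl group, and high methylation of a promoter often goes with low transcription. Livers were measured whole, so a shift in the mix of cells and a change of methylation within cells cannot be told apart, and transcripts were not analysed here.

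The LSBS windows of the receptors are printed to show what was read, 200 bases each in mm9, in the direction of the gene, with the measured CpGs in capitals. The Nr1i3 window is chr1:173143350-173143549 on the plus strand and the Nr1i2 window is chr16:38296289-38296488 on the minus strand.
Nr1i3: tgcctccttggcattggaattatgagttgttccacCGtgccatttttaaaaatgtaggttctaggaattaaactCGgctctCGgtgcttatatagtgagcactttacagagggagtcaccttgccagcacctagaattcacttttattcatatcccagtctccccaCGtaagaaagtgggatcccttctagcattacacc
Nr1i2: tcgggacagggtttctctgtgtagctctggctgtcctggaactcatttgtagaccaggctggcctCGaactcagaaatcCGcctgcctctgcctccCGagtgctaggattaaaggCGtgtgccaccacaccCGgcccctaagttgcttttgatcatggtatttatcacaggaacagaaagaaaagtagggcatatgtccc

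CpGs are numbered by coordinate. In Nr1i3 (ENSMUSG00000005677.7, chr1:173144101-173150832, plus strand) CpGs 1 to 4 lie 716, 677, 670 and 585 bp upstream of the annotated start. In Nr1i2 (ENSMUSG00000022809.4, chr16:38248409-38294910, minus strand) CpGs 1 to 5 lie 1446, 1462, 1481, 1498 and 1512 bp upstream, so in the printed window CpG 5 comes first. None of the 9 lies in an annotated exon or intron. The authors' locus names call both sets promoters. The paper's analysis of genomic features took promoters as 1 kb upstream of a start, and the Nr1i2 CpGs lie beyond that. The nearest other gene is Tomm40l, 4417 bp or more from the Nr1i3 CpGs, and 4932425I24Rik, 1418 bp or more from those of Nr1i2. The Nr1i3 window held 4 CpGs and the Nr1i2 window 6. Windows of 200 bases at the same distance from other genes had medians of 2 and 1. The receptor windows were centred on the measured CpGs and so held at least 4 and 5 by design, whatever the density around them. In 300 bases around the start, Nr1i3 held 3 CpGs and Nr1i2 2, against a median of 7 over such windows of all promoters. The hexamer AGGTCA, the half-site that nuclear receptors bind, was in neither window on either strand, and 12.1% and 12.3% of the windows of other genes held it.

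The sequences differ in how often they occur in the genome. The 25 bases around each Nr1i3 CpG occur 1 time in mm9. Around Nr1i2 CpGs 1 to 5 they occur 1, 57, 444, 23293 and 39449 times, and the printed window reads as part of a B1 element, a short interspersed repeat found throughout the mouse genome. The counts are of sequence before bisulfite conversion, and the primers were not checked. Whether reads from other copies entered the Nr1i2 values, CpG 1 included, was not tested.

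The receptor promoters moved in opposite directions. Between E18.5 and 6 months all 4 Nr1i3 CpGs fell and all 5 Nr1i2 CpGs rose, and at every one of the 9 the livers of one age all lay outside the range of the other. The Nr1i3 losses were 30.7 to 43.1 points and the Nr1i2 gains 14.9 to 24.9 points (limma over all LSBS CpGs, adjusted p from 7.92e-21 to 8.18e-15). Calls asked for more than 5 points and an adjusted p of 0.1 or less, which 31.9% of all CpGs met in this comparison, 14.5% as gains and 17.5% as losses. Ranges did not overlap at 34.3% of all CpGs. The median change over all LSBS CpGs was 0.0845 points, against -32.6 for the 4 CpGs of Nr1i3 and 15.7 for the 5 of Nr1i2. These shares include 7 loci with 96 CpGs whose means stayed between 0.101 and 3.65% at every age and held no call. Among the remaining 70 CpGs, the receptors included, 75.7% were called, with a median change of 2.31 points and a median size of change, in either direction, of 15.3 points. An F test over all 7 ages called all 9 receptor CpGs and 42.8% of all CpGs.

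**Figure D1:**
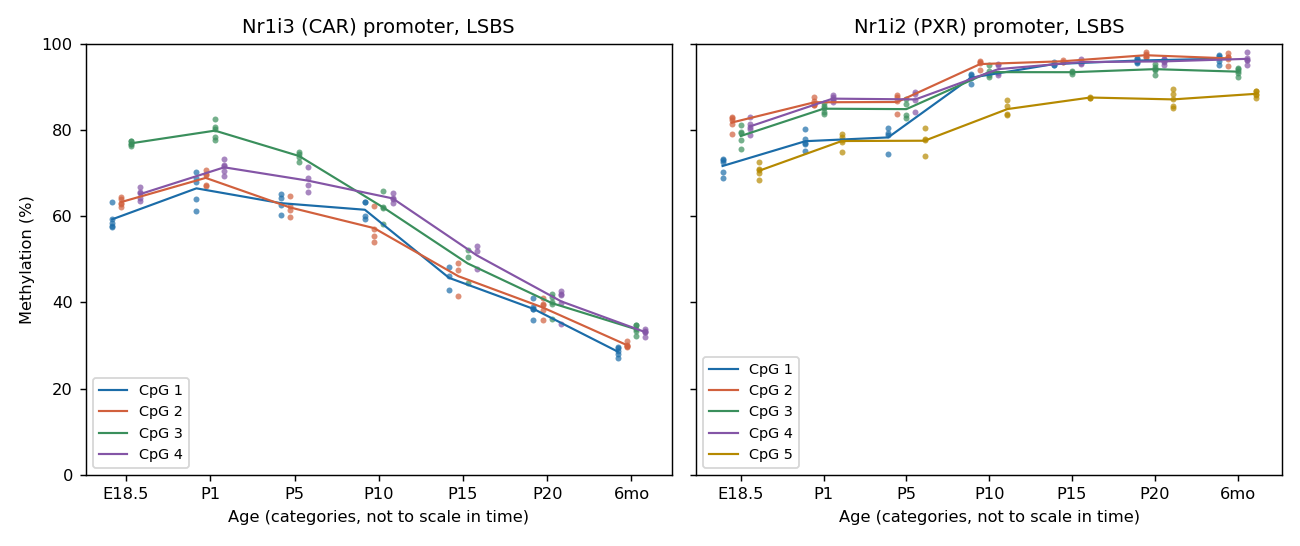
Methylation in percent (vertical axis) by age (horizontal axis, ages as categories) at the 4 Nr1i3 and 5 Nr1i2 promoter CpGs, with a point for each liver and a line through the means of each CpG. Nr1i3 descends from means of 59.3 to 76.9% at E18.5 to means of 28.6 to 33.8% at 6 months, whereas Nr1i2 climbs to means of 88.4 to 96.7%.

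Nr1i3 CpG 3 carried the largest change of the 9. Its E18.5 livers read 76.2, 76.8, 76.8, 77.4 and 77.4%, and its 6-month livers 32.2, 33.4, 33.9, 34.7 and 34.8%. Every E18.5 liver was above every adult liver by a wide gap, and the spread within either age was about a point, with means of 76.9% ± 0.511 and 33.8% ± 1.04 (SD, n = 5 each). The loss was 43.1 points (second minus first, -43.1, SE 1.297, limma adjusted p = 7.92e-21).

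At Nr1i3 CpG 1 the E18.5 values were 57.5, 57.8, 58.4, 59.4 and 63.4%, and those at 6 months 27.2, 28.0, 28.7, 29.5 and 29.7%. At CpG 2 methylation went from 63.3% ± 0.923 to 30.1% ± 0.520 (SD, n = 5 each). At CpG 4 it went from 65.1% ± 1.31 to 33.1% ± 0.689 (SD, n = 5 each). The changes were -30.7 (SE 1.50), -33.2 (SE 1.35) and -32.0 points (SE 1.23) at CpGs 1, 2 and 4, with the 6-month livers lower at each.

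At Nr1i2 CpG 1, the one Nr1i2 CpG whose surrounding 25 bases are unique, the E18.5 livers read 68.9, 70.2, 72.7, 73.2 and 73.4%. The 6-month livers read 95.1, 96.2, 96.8, 97.3 and 97.4%. The CpG was thus nearly fully methylated in every adult liver, and its gain of 24.9 points (SE 0.971, limma adjusted p = 1.94e-18) was the largest of the 5.

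Nr1i2 CpGs 2, 3 and 4 began higher and rose less. Their means went from 81.8 to 96.7%, from 78.6 to 93.6% and from 80.9 to 96.5%, gains of 14.9 (SE 0.734), 14.9 (SE 0.852) and 15.7 points (SE 0.761). CpG 5, the farthest from the start, rose from 70.6% ± 1.49 to 88.4% ± 0.712 (SD, n = 5 each) and was the lowest of the 5 at both ages.

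The difference between the receptors was tested on means over the livers of 1 age and sex, because rows carry age and sex but no liver name and livers could not be joined between CpGs. The Nr1i3 locus mean went from 66.2 to 31.4% and the Nr1i2 locus mean from 76.7 to 94.4%. The change at Nr1i3 minus that at Nr1i2 was -52.4 points (SE 1.55, limma over 136 pairs of loci, adjusted p = 3.64e-09). Such a difference was called for 77.2% of the pairs at an adjusted p up to 0.1, and pairs among the loci near 0 are in that share. Each age holds 1 mean per sex in this fit. Its p-value therefore measures the gap between the sexes within an age, not the spread between livers. The same holds for the later tests between loci by step and between CpGs of a locus.

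The course was then read step by step between consecutive ages of the 7 used. LSBS values at 9 weeks, an age between P20 and 6 months, match no labelled sample and were left out. Shares of all CpGs in each step include the 96 CpGs of the 7 loci near 0, which held no call. Among the remaining 70 CpGs the called share was 14.3% from E18.5 to P1 and 20% from P1 to P5. It was 48.6% from P5 to P10, 45.7% from P10 to P15, 54.3% from P15 to P20 and 7.14% from P20 to 6 months. The difference between loci was tested in each step as it was over the whole course, a test added after the values were seen. In the step from E18.5 to P1 both receptors rose. Nr1i3 CpGs 1, 2 and 4 gained 7.19, 5.59 and 6.23 points, and Nr1i2 CpGs 1, 3, 4 and 5 gained 5.76, 6.33, 6.46 and 6.91 points (limma adjusted p from 1.34e-06 to 0.00426). These 7 were among only 10 CpGs called in this step, 6.02% of all, each a gain. Nr1i3 CpG 3 had a difference of 2.96 points (adjusted p = 0.158), and Nr1i2 CpG 2 one of 4.71 points (adjusted p = 4.26e-05), under the 5 points asked for. The locus means changed by 5.49 points at Nr1i3 and 6.03 at Nr1i2, and a difference between them was not called (-0.539 points, SE 1.55, limma adjusted p = 0.865), where 25.7% of pairs of loci were.

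From P1 to P5 the receptors parted. Nr1i3 CpGs 2 and 3 fell, with differences of -6.85 and -5.90 points (limma adjusted p = 0.00118 and 0.00301), where 8.43% of all CpGs were called. CpGs 1 and 4 had differences of -3.43 and -3.11 points that did not pass. No Nr1i2 CpG was called, and their differences lay between -0.177 and 0.877 points with SEs of 0.779 to 1.09. The change at the Nr1i3 locus minus that at Nr1i2 was -4.97 points (SE 1.65, limma adjusted p = 0.0529), where 33.8% of pairs of loci were called.

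The step from P5 to P10 held the largest part of the Nr1i2 gain. All 5 Nr1i2 CpGs rose, by 7.03 to 13.9 points (limma adjusted p from 3.99e-11 to 5.82e-06), 5 of the 9 gains called in the table and against 5.42% of all CpGs called as gains. CpG 1 read 74.5, 79.0, 79.4 and 80.4% at P5 and 90.7, 92.0, 92.9 and 93.1% at P10. This step made up 55.7% of its whole change from E18.5 to 6 months, and 41.1 to 59.1% at the other CpGs of Nr1i2.

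In the same step Nr1i3 was called at CpG 3 alone. Its livers read 72.7, 73.8, 74.5 and 75.0% at P5 and 58.2, 62.0, 62.1 and 65.8% at P10, so the 2 ages did not overlap. It fell by 11.95 points (SE 1.45, limma adjusted p = 1.08e-07), where 15.1% of all CpGs were called as losses. CpGs 2 and 4 had differences of -4.81 and -4.10 points that passed the p threshold (adjusted p = 0.0156 and 0.0239) but were under 5 points, with ranges apart at CpG 4. CpG 1 had a difference of -1.54 points (adjusted p = 0.633). The number called rose to 2 or 3 in fits without single values of P5 or P10. The change at the Nr1i3 locus minus that at Nr1i2 was -14.7 points (SE 1.74, adjusted p = 8.74e-05), where 72.8% of pairs were called.

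From P10 onward Nr1i3 kept falling. From P10 to P15 all 4 Nr1i3 CpGs fell, by 11.2 to 15.8 points (limma adjusted p from 1.79e-07 to 7.26e-06), against 18.7% of all CpGs called as losses. From P15 to P20 all 4 fell by 7.19 to 10.7 points (adjusted p from 6.40e-06 to 0.00322), against 15.7%. Of the 70 CpGs outside the loci near 0, 31 were called as losses from P10 to P15 and 26 from P15 to P20. No Nr1i2 CpG was called, but CpGs 1 to 4 already had means of 92.2, 95.3, 93.5 and 94.2% at P10, so a further gain of over 5 points was nearly or wholly out of reach. CpG 5, at 84.9%, had more room. The Nr1i2 differences in these steps lay between -0.434 and 3.16 points, the last at CpG 1 with an adjusted p of 0.0601. The change at the Nr1i3 locus minus that at Nr1i2 was -14.9 points from P10 to P15 (adjusted p = 0.000284, 57.4% of pairs called) and -9.11 points from P15 to P20 (adjusted p = 0.00320, 62.5% called), with Nr1i2 near its ceiling in both.

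From P20 to 6 months all 4 Nr1i3 CpGs fell again, with differences of -9.91, -8.74, -6.06 and -7.15 points at CpGs 1 to 4 (limma adjusted p from 7.08e-05 to 0.00360), and no P20 liver lay within the adult range at any of them. These were 4 of the 5 CpGs called in this step, 3.01% of all, while the ranges did not overlap at 4.82% of all. The Nr1i3 locus mean changed by -7.97 points. Its change was called different from that of 14 of the other 16 loci, being lower in each. The exceptions were Acsl1 (-6.81 points, SE 2.47, limma adjusted p = 0.106) and Lep (-5.06 points, SE 2.42, adjusted p = 0.200). Such a difference was called for 22.1% of all pairs of loci, and pairs among the 7 loci near 0 are in that share. Those 7 loci are among the 14. With means of 3.65% or less, a fall as large as that of Nr1i3 was out of their reach. Of the others called, Rxrg, Pck1 and Mttp had P20 means of 14.4, 22.5 and 27.7%, against 39.4% at Nr1i3. Sftpa1, Peg3, Irs1 and Nr1i2 stood higher, at 77.9, 54.6, 95.2 and 94.2%. At Nr1i3 CpG 1 the P20 livers read 35.8, 38.4, 38.5, 38.9 and 41.1%, all above the adult values given before. Nr1i2 differences lay between -0.730 and 1.29 points. By P20 Nr1i3 CpGs had reached 67.7 to 85.9% of their change from E18.5 to 6 months, whereas Nr1i2 CpGs had reached 80.2 to 99.2% of theirs by P10.

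An exact permutation test per CpG (two-sided) called no LSBS CpG in the steps starting at P1, P10 and P20, where the smallest p it can give is 0.00794, 0.0286 and 0.00794. At an unadjusted p up to 0.05 it passed 26, 35 and 23 CpGs and limma 25, 50 and 24. With limma fitted to only the 2 ages compared, 2, 4 and 4 Nr1i3 CpGs were called in these 3 steps, as in the fit of all 7 ages.

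**Figure D2:**
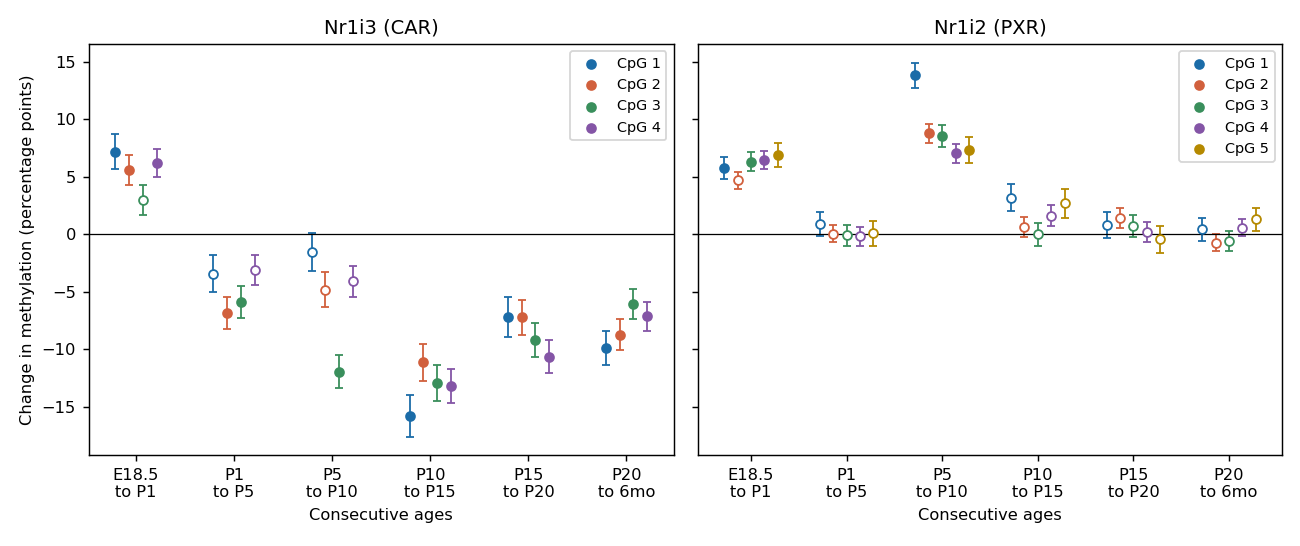
Change in methylation in percentage points (vertical axis) between consecutive ages (horizontal axis) at each promoter CpG. Ages are the 7 used, without 9 weeks, and bars are 1 standard error from the limma fit. Filled points were called changed and open points were not. Nr1i2 has filled points only in the steps from E18.5 to P1 and from P5 to P10, while all 4 Nr1i3 CpGs are filled below 0 in the last 3 steps. Nr1i2 CpGs 1 to 4 stood at 92.2 to 95.3% when those steps began, with little or no room for a gain of over 5 points.

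CpGs of 1 promoter did not move alike. The difference of each pair of CpGs of a locus was tested in the same way as the difference between loci, a test added after the values were seen. Nr1i3 CpG 3 lost 12.5, 9.93 and 11.1 points more than CpGs 1, 2 and 4 from E18.5 to 6 months (limma over 997 pairs, adjusted p = 0.000929, 4.14e-05 and 3.92e-05). From P5 to P10 it lost 10.4, 7.14 and 7.85 points more (adjusted p = 0.0171, 0.00300 and 0.00300). The 3 pairs among CpGs 1, 2 and 4 differed by 1.18 to 2.53 points over the whole course (SE 1.13 to 1.93) and were not called.

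CpG 3 thereby came level with its neighbours. The means of the 4 Nr1i3 CpGs spanned 17.6 points at E18.5, 6.90 at P10, 1.74 at P20 and 5.17 at 6 months. CpGs 2 and 3 lie 7 bases apart, yet at E18.5 the lowest liver of CpG 3, at 76.2%, was above the highest of CpG 2, at 64.5%.

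Within Nr1i2, CpG 1 gained 9.99, 9.96, 9.20 and 7.03 points more than CpGs 2, 3, 4 and 5 from E18.5 to 6 months (limma adjusted p from 3.88e-06 to 0.00163). It likewise gained 5.05 to 6.82 points more from P5 to P10 (adjusted p from 0.00119 to 0.0171). The 6 pairs among CpGs 2 to 5 were not called over the whole course, the nearest being CpGs 2 and 5 (adjusted p = 0.102). A pair difference was called for 17.5% of all pairs over the whole course and for 6.52% from P5 to P10. Pairs within the 7 loci near 0 are in both shares. Nr1i2 CpGs 2, 3 and 4 began at 81.8, 78.6 and 80.9%, so the 24.9 points gained at CpG 1 were out of their reach. Their smaller gains over the whole course were thus fixed in advance by the ceiling. At P5 they stood at 86.5, 84.9 and 87.1%, with less room than CpG 1 at 78.3%. CpG 5, at 70.6% at E18.5 and 77.5% at P5, had room in both comparisons. CpG 1 is also the Nr1i2 CpG with unique surrounding bases, and the part of the repeat in these differences was not tested.

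Sex was tested with age as a second term. No receptor CpG was called for sex after adjustment, as 0.00% of all LSBS CpGs were by limma, with 6 at an unadjusted p up to 0.05. One of these was Nr1i3 CpG 1, 2.22 points lower in males (SE 0.795, unadjusted p = 0.0101, limma adjusted p = 0.692). Locus means at E18.5 were 66.5% in females and 66.0% in males for Nr1i3 and 75.7 and 77.3% for Nr1i2. At 6 months they were 31.3 and 31.4% for Nr1i3 and 94.1 and 94.5% for Nr1i2. The change from E18.5 to 6 months differed by sex at none of the 9 after adjustment (7 LSBS CpGs in all).

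Among the other 15 loci, the courses most like Nr1i3 over the 7 age means were those of Mttp, the microsomal triglyceride transfer protein (r = 0.969), and Acsl1, an acyl-CoA synthetase of fat oxidation (r = 0.963). Their locus means fell from 62.0 to 24.8% and from 53.9 to 19.2%. From P5 to P10 their means changed by -14.2 and -14.8 points, more than the -5.60 points of Nr1i3 (limma adjusted p = 0.000230 and 0.0161 for the difference). From P20 to 6 months they changed by -2.83 and -1.16 points, against -7.97 points at Nr1i3 (adjusted p = 0.0136 and 0.106 for the difference). Most like Nr1i2 were Irs1, an insulin receptor substrate (r = 0.947), and the lung surfactant gene Sftpa1 (r = 0.942). Nr1i3 and Nr1i2 had r = -0.807. These are descriptions over 7 means that share livers.

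**Figure D3:**
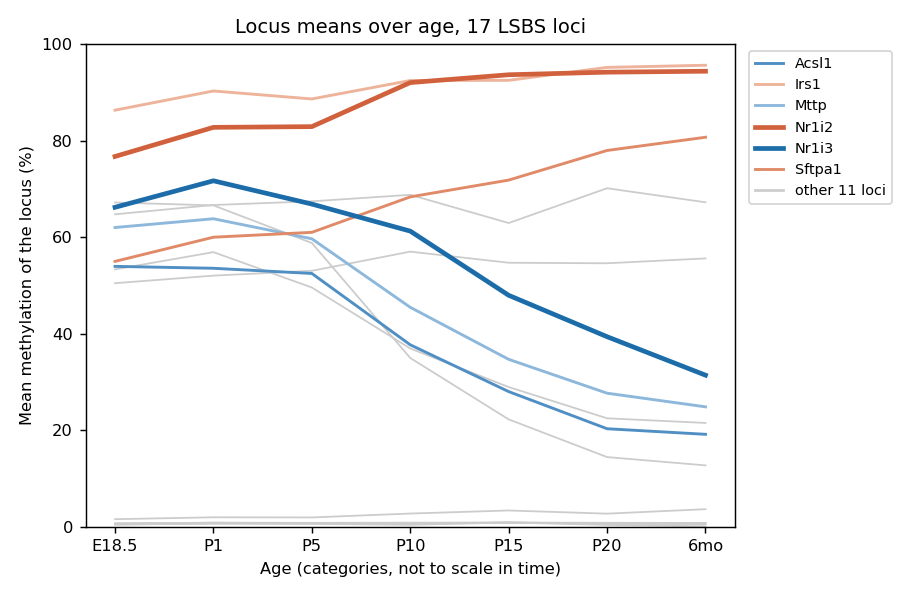
Mean methylation of each of the 17 LSBS loci in percent (vertical axis) by age (horizontal axis, categories), with the receptors as thick lines, the loci most like each in pale colours and the other 11 in grey. Nr1i3 starts its descent after P1 and ends at 31.4%, and Nr1i2 levels off after P10 at 92.0 to 94.4%.

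RRBS measured no CpG in either promoter window, so it reports on other parts of the genes. All 12 CpGs lie downstream of the start, 2907 to 5453 bp in Nr1i3 and 13651 to 21962 bp in Nr1i2, and the 25 bases around each occur 1 time in mm9. In Nr1i3, CpGs 1 and 2 lie in coding exon 5 and CpGs 3 and 4 in coding exon 8, while CpGs 5 and 6 lie past the main transcript, within Tomm40l. In Nr1i2 all 6 lie in intron 1. The runs that hold most of the changes called between E18.5 and 9 weeks are printed in the direction of the gene, with the CpGs in capitals, for Nr1i3 CpGs 3 and 4 (chr1:173147744-173147831, plus strand, mm9) and for Nr1i2 CpGs 6, 5, 4 and 3 in that order (chr16:38281112-38281279, minus strand, mm9).
Nr1i3 exon 8: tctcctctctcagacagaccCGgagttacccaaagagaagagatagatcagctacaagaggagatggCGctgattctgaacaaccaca
Nr1i2 intron 1: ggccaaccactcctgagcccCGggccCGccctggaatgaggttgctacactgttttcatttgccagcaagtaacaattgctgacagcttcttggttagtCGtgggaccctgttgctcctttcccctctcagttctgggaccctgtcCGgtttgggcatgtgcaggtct

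These libraries carry a change across the whole table. The median change over all CpGs tested was 9.68 points from E18.5 to 9 weeks, 3.74 from E18.5 to P1 and 5.56 from P1 to 9 weeks. It was 0.594, 0.0247 and 0.369 after each library was divided by its mean over highly methylated CpGs. Libraries at 9 weeks lacked a value at 0.0214 to 40.9% of CpGs.

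Intron 1 of Nr1i2 lost methylation at its 4 neighbouring CpGs between E18.5 and 9 weeks. CpGs 3, 4, 5 and 6 changed by -27.5, -14.4, -29.6 and -25.8 points (limma adjusted p = 0.00177, 0.0133, 0.00274 and 0.00913), where 64.9% of all CpGs tested were called, 58.5% as gains and 6.46% as losses. At CpG 5 the E18.5 livers read 60.3, 63.2, 63.6, 70.9 and 71.4%. The 7 livers at 9 weeks with a value there ranged from 12 to 58.8% with a median of 37.9%. All lay below E18.5 yet far apart from each other. Depth is unknown for these values, and its part in their spread was not tested. At CpG 3 the 9-week values ran from 5.00 to 48.1% (median 22.1%, n = 10) and the E18.5 values from 45.8 to 63.1% (median 49.7%), so the ages overlapped.

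The other pair of Nr1i2 CpGs, farther into the intron, did not share this loss. CpG 1 was at 52.9% ± 3.98 (SD, n = 5) before birth and at 65.9% ± 14.9 (SD, n = 8) in adults, a gain of 13.0 points (limma adjusted p = 0.0801), and its call was lost in 10 of 15 fits that left out 1 library. After division by highly methylated CpGs the CpG 1 difference was 6.71 points (adjusted p = 0.515). CpG 2 had a difference of 5.30 points (SE 6.98), or -2.42 after that division.

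The intron loss of Nr1i2 fell after P1. From E18.5 to P1 none of the 12 receptor CpGs was called, where 0.552% of all CpGs were, and 4 of the 12 had an unadjusted p up to 0.05 by limma. From P1 to 9 weeks Nr1i2 CpGs 3 to 6 changed by -26.8, -11.6, -32.3 and -28.1 points (limma adjusted p = 0.000338, 0.0361, 0.000475 and 0.00126), against 7.00% of all CpGs called as losses. The 2 Nr1i2 CpGs complete in all libraries, CpGs 3 and 4, were averaged in each. At E18.5 this mean was 39.5% ± 4.64 (SD, n = 5). It was 37.7% ± 7.31 (SD, n = 9) at P1 and fell to 18.47% ± 11.3 (SD, n = 10) by 9 weeks. The difference was -21.0 points from E18.5 to 9 weeks (exact permutation test, two-sided, p = 0.00366, adjusted over 5 tests 0.00611). With all 6 Nr1i2 CpGs kept, each centred on its own mean, a choice made after the values were seen, it was -11.9 points and did not pass (exact permutation p = 0.0546, adjusted over 9 tests 0.113). It was -19.2 points from P1 to 9 weeks (exact permutation p = 0.000844, adjusted 0.00422), or -14.2 points with all 6 CpGs centred (exact permutation p = 0.00438, adjusted 0.0133).

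The Nr1i3 CpGs of exon 8 rose from E18.5 to 9 weeks, as did most CpGs of the table. Of all CpGs tested, 58.5% were called as gains, and the median change was 9.68 points. CpG 3 read 64.7, 72.3, 73.8, 77.6 and 79.3% at E18.5 and from 80 to 100% (median 85.7%, n = 8) at 9 weeks, with no overlap, a gain of 13.4 points (SE 3.64, limma adjusted p = 0.00583). CpG 4 gained 7.56 points (SE 2.74, adjusted p = 0.0282), less than that median. After division by highly methylated CpGs neither was called, with differences of 4.23 and -4.11 points, so the direction at CpG 4 flipped.

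The Nr1i3 CpGs of exon 5 had differences of -5.13 (SE 4.84) and -3.28 points (SE 4.49) from E18.5 to 9 weeks and were not called, but after that division they were called at -17.7 and -15.1 points. From P1 to 9 weeks they fell by 12.3 and 11.9 points (limma adjusted p = 0.0205 and 0.0245), against 7.00% of all CpGs called as losses. CpGs 5 and 6 had a value in 6 of 10 libraries at 9 weeks and were not tested there. CpG 6 ranged from 80 to 93.8% at E18.5 and from 62.5 to 78.6% at 9 weeks, and CpG 5 had medians of 75.0% at both ages.

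From E18.5 to P1 the mean over the 6 Nr1i3 CpGs was 82.9% ± 2.06 (SD, n = 5) and then 89.0% ± 2.80 (SD, n = 9). It rose by 6.09 points (exact permutation p = 0.00200, adjusted 0.00500), or 1.61 points after division (exact permutation p = 0.256). The mean over 5 Nr1i2 CpGs differed by 2.11 points (exact permutation p = 0.403). The difference between the receptors in this step was 3.98 points and did not pass (exact permutation p = 0.136, adjusted 0.170). Over the longer steps Nr1i3 has no CpG complete in all libraries, so CpGs with missing values were kept and each centred on its own mean. The Nr1i3 mean then differed by -0.297 points from E18.5 to 9 weeks (exact permutation p = 0.900, adjusted over 9 tests 0.900) and fell by 6.45 points from P1 to 9 weeks (exact permutation p = 0.00445, adjusted 0.0133). The change at Nr1i3 minus that at Nr1i2 was 11.6 points from E18.5 to 9 weeks (exact permutation p = 0.0626, adjusted 0.113) and 7.74 points from P1 to 9 weeks (exact permutation p = 0.101, adjusted 0.130), and neither passed.

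**Figure D4:**
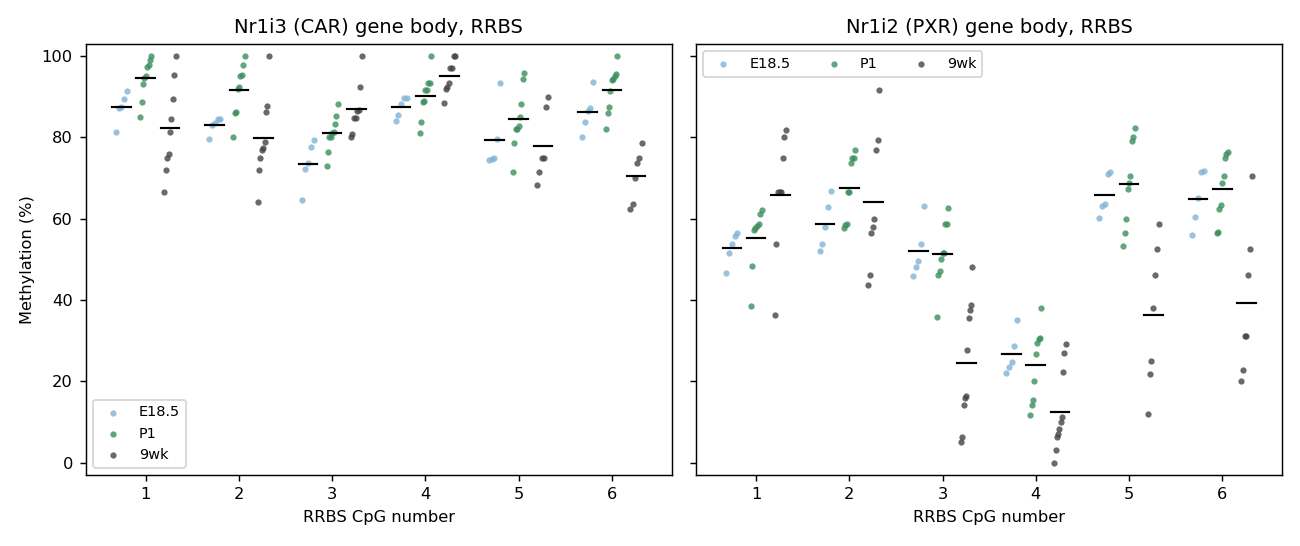
RRBS methylation in percent (vertical axis) at the 6 CpGs of each receptor gene (horizontal axis, numbered by coordinate), with a point for each library and a black bar at the mean of each age. Nr1i2 CpGs 3 to 6 sit lower and wider at 9 weeks, with means of 12.4 to 39.2%, while Nr1i3 means stay between 70.6 and 95.0% throughout.

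The pathway around the receptors was read in the same RRBS libraries from a list of 54 genes in 5 roles, chosen with earlier results of these data known. All percentages are of CpGs tested from 5 kb upstream to the gene end, to be read against 58.5% called as gains and 6.46% as losses in the whole table from E18.5 to 9 weeks. Of the 14 partners and regulators, all with tested CpGs, 128 of 262 CpGs rose and 72 fell (48.9 and 27.5%, median change 7.10 points). Of the other metabolic receptors, 37 of 92 CpGs rose and 16 fell (median 4.63 points). CpGs of phase 1 enzymes were tested in 6 of 14 genes, where 21 of 62 rose and 19 fell (median 3.96 points). Phase 2 enzymes had 25 of 36 CpGs up and 2 down (median 19.9 points), and transporters 109 of 151 up and 11 down (median 11.4 points). Classic targets such as Cyp3a11 and Cyp2b10 had no tested CpG.

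Rxra, the DNA-binding partner of both receptors, lost methylation. Of its 23 tested CpGs 20 fell and 2 rose, and their mean went from 41.5 to 21.2%. By the same measure the largest mean losses besides Rxra were at Ppara, the receptor of fatty acids (7 of 8 CpGs fell, mean change -40.0 points), Alas1, the first enzyme of heme synthesis (13 of 14, -33.7 points), and Nr3c1, the glucocorticoid receptor (4 of 4, -30.7 points). The largest mean gains were at Ugt1a6a (15 of 16 CpGs rose, 31.8 points) and Ugt1a9 (18 of 20, 29.4 points), glucuronosyltransferases whose windows overlap and share CpGs. Next came Ppp1r16a, a subunit of protein phosphatase (27 of 33, 26.6 points), and Gstm3, a glutathione transferase (6 of 6, 24.2 points).

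**Figure D5:**
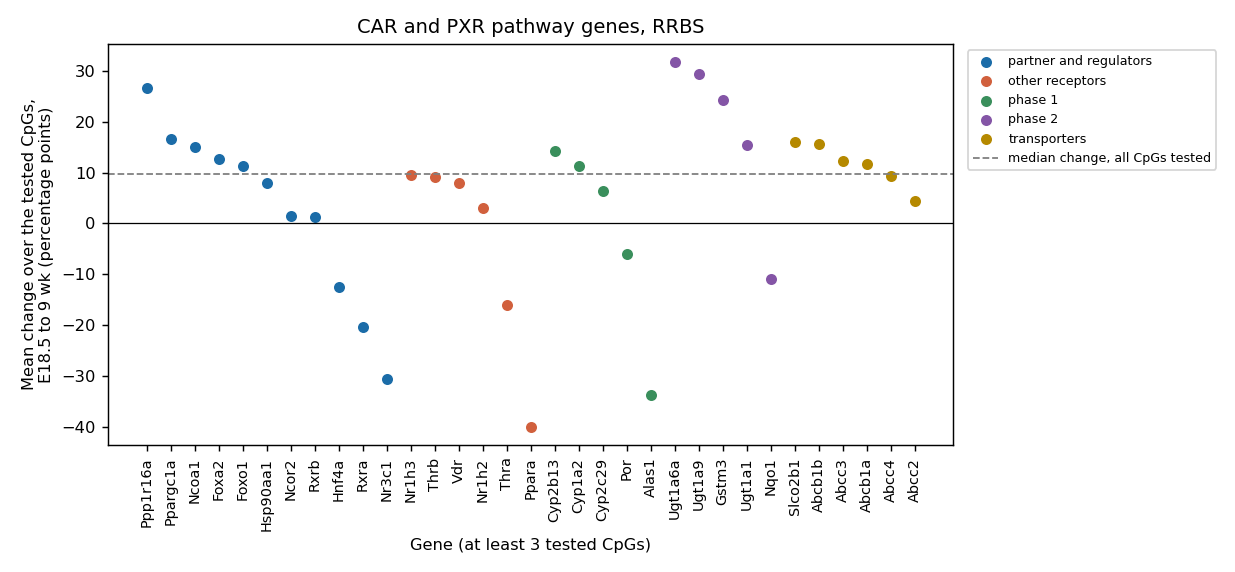
Mean change in RRBS methylation from E18.5 to 9 weeks in percentage points (vertical axis) over the tested CpGs of each pathway gene with at least 3 of them (horizontal axis), coloured by role, with a dashed line at the median change of all CpGs tested, 9.68 points. Of the 33 genes, 25 lie above 0 and 8 below it, with Ppara, Alas1, Nr3c1 and Rxra lowest.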

How the data were processed

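Per the labels, LSBS was run on bisulfite-treated DNA amplified by PCR, and RRBS on fragments treated with bisulfite after adapter ligation. Reads were aligned to mm9, and the submitters' processing notes name Bismark 0.7.6 and Bowtie2. The authors left out CpGs under a minimum of reads in both assays and, for RRBS, CpGs missing in many libraries or nearly unmethylated in all. The authors deposited LSBS values as percent methylation per CpG and liver, and RRBS values as the methylated fraction of reads per CpG and library. Both are unscaled. Columns with the authors' own differences, p-values and q-values, and the same values at mm10, were not used. The LSBS table also holds 830 values at 9 weeks that match no labelled sample and were not used here. All 24 RRBS columns were used. The series names 7 of the 9-week RRBS libraries as taken from another study without labels that set them apart. P1 RRBS libraries have a 6-month tag in their titles, and their age label was used.

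The members and gene lists were chosen with earlier results of these data known. Fractions were multiplied to percent. Tests used limma 3.58.1 in R 4.3.3 with Benjamini-Hochberg adjustment over all CpGs, in 1 fit of all 7 ages for LSBS and of the 2 ages compared for RRBS. RRBS CpGs entered a test with values in 80% or more of its libraries and at least 10% methylation in one of them. Exact permutation tests compared receptor means between ages. Positions were checked against mm9, genes came from GENCODE vM1, and Python 3.11.15 did the rest. All receptor CpGs are described. Other loci named are the 2 with the highest r for each receptor. Pathway genes named are Rxra and the 4 with the largest mean gain and the 4 with the largest mean loss among those with at least 3 tested CpGs.

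In simulated LSBS data all 30 changed CpGs of 166 were called and 0 unchanged ones. In simulated RRBS data for E18.5 and 9 weeks, 149 of 182 changed CpGs among 18429 were called, with 25 unchanged ones. Alternatives changed the fit, test, scale, threshold, sexes and libraries used.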

Additional observations from a re-analysis of the deposited data

Results flagged for a closer look

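A single library stood apart from the others of its age in 2 of 90 groups of receptor values, by the gap to its nearest neighbour over the range. Chance alone marks about 1 group in 20. At Nr1i3 RRBS CpG 2, one E18.5 library read 79.7% while the other 4 lay between 83.2 and 84.5%. At Nr1i3 RRBS CpG 5, one E18.5 library read 93.3% while the other 4 lay between 74.5 and 79.7%. Neither CpG was called from E18.5 to P1 or, where tested, from E18.5 to 9 weeks.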

How the results depend on the processing

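No paired analysis was possible because the LSBS rows carry no liver name or replicate number, and RRBS libraries are numbered in accession order only. A higher read minimum could not be tried, since read counts were not used. The differences between loci by step and between CpGs of 1 locus were tested in 1 setting. All 9 promoter CpGs kept their direction and call from E18.5 to 6 months under each alternative run. The receptor difference lay between -50.1 and -52.6 points with other weights or medians, and between -53.7 and -51.6 without single groups of 1 age and sex.

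The exact permutation test called 0 Nr1i3 CpGs in the steps that start at P1, P10 and P20. With males alone, 1 Nr1i3 CpG was called from E18.5 to P1, 1 from P1 to P5 and 1 from P15 to P20, where single males stand for P5, P10 and P15 and are assumed to vary like the other ages. With females alone, 2 were called from P5 to P10 (CpG 2 at -7.27 points, against 2.55 in males, the reverse). Between 1 and 3 Nr1i3 CpGs were called from P5 to P10 when 1 value per CpG was left out, CpG 2 reaching -6.49 and CpG 4 -5.005 points. Small Nr1i2 differences that were never called changed sign. From P1 to P5 they read -0.230, 0.441 and -2.20 (CpGs 2, 3 and 5, females) and 0.0787 (CpG 3, sex as a term), and without 1 value -0.477 to 1.02, -0.849 to 0.570, -0.770 to 0.817 and -0.923 to 1.28 at CpGs 2 to 5. From P10 to P15 CpG 3 read 0.00842 in males and -0.399 to 0.509 without 1 value. From P15 to P20 CpG 4 read -0.201 in females and -0.0213 to 0.501 without 1 value, and CpG 5 read 0.864 in males and -1.02 to 0.0633. From P20 to 6 months CpG 1 read -0.323 in females.

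In RRBS, keeping only CpGs with a value in every library left 0 calls for Nr1i3 and 2 for Nr1i2, both from E18.5 to 9 weeks and from P1 to 9 weeks, since fewer CpGs were tested. Leaving out 1 library gave 2 to 5 Nr1i2 calls from E18.5 to 9 weeks, because CpGs 5 and 6 then fell under the filter on missing values in 12 of 15 fits. In the 3 fits that kept them they were called. With only the 7 libraries at 9 weeks deposited first, also chosen after seeing the data, Nr1i2 CpG 1 had a difference of 11.0 points and lost its call (limma adjusted p = 0.129). CpG 3 from E18.5 to P1 ran from -2.28 to 2.04 points without 1 library. The log scale left 1 Nr1i3 call from P1 to 9 weeks. Dividing by highly methylated CpGs reversed Nr1i3 CpG 4 in all 3 comparisons (-4.11 from E18.5 to 9 weeks, -2.41 from E18.5 to P1, -1.69 from P1 to 9 weeks), Nr1i2 CpG 2 (-2.42 to 9 weeks) and, from E18.5 to P1, Nr1i2 CpGs 1, 5 and 6 (-0.522, -1.15 and -1.48) and the Nr1i2 mean (-1.09). It also left the Nr1i3 mean at 1.61 points. With all 6 Nr1i2 CpGs kept and centred, chosen after seeing the data, the difference in means from E18.5 to 9 weeks was -11.9 points (exact permutation, adjusted p = 0.113). The cause was not tested. Without single libraries the Nr1i2 mean fell by 19.6 to 23.1 points from E18.5 to 9 weeks and by 17.9 to 21.3 from P1 to 9 weeks. From E18.5 to P1 the Nr1i3 mean rose by 5.33 to 6.74, the Nr1i2 mean differed by 0.691 to 3.09 and the receptor difference by 2.86 to 5.48 points.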
